A study of Mus musculus with 12 samples.

Results

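The transcripts described here are 8 regulators of DNA methylation that a mouse oocyte stores, Dppa3, Dnmt1, Dnmt3a, Dnmt3b, Dnmt3l, Uhrf1, Tet3 and Trim28. They were taken by gene symbol, as a set named for its role, from the 24255 rows of an RNA-Seq table of fully grown germinal vesicle (GV) stage oocytes, the immature oocytes still arrested before the first meiotic division. The set was chosen with earlier results of these data known. All 8 were among the 11233 transcripts that were tested, namely those with FPKM 1 or more in any library, and 7 of them were above 0 in every library. FPKM, fragments scaled by transcript length and by the number of mapped fragments, is a level that can be compared between genes. There were 12 libraries of 20 oocytes each, made with Smart-seq2, from C57BL/6 females of 3 weeks that had received 5 IU of PMSG, a gonadotropin that makes follicles grow, 46 h before. The 4 groups of 3 libraries were wild type (WT), animals with the D166G missense mutation of Dpagt1 in every cell (MUT), Dpagt1F/F Gdf9CRE/+ animals that delete Dpagt1 in the oocyte (GcKO), and Dpagt1F/F Amhr2CRE/+ animals that delete it in granulosa cells (AmcKO). DPAGT1 catalyses the first step of protein N-glycosylation. The oocytes of AmcKO animals keep their own floxed gene, since the Amhr2-driven Cre acts in the somatic cells around them, whereas those of MUT and GcKO animals carry the defect themselves. The labels do not say whether the 3 libraries of a group came from separate animals, so that p-values measure the spread between these libraries, which may be technical.

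A growing oocyte writes DNA methylation anew on a genome that was erased in the germ line, mainly through the methyltransferase DNMT3A and its catalytically inactive partner DNMT3L. DNMT1 copies methylation after replication, and UHRF1, which reads hemimethylated CpG sites, brings it there. DPPA3, also known as Stella or PGC7, keeps UHRF1 out of the oocyte nucleus and after fertilization shields the maternal genome from TET3, the dioxygenase that oxidizes 5-methylcytosine. TRIM28 is the scaffold through which KRAB zinc finger proteins such as ZFP57 keep imprints methylated in the embryo. The question put to the table was whether these messages, stored for the embryo, were present at other levels when N-glycosylation was disturbed in the whole animal, in the oocyte or in the granulosa cells.

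CpG sites, the substrate of these enzymes, are shown in capitals in the 250 bases before a RefSeq start of Trim28, Tet3 and Uhrf1, the 3 members whose messages were higher in both MUT and GcKO, and of Dnmt1, whose message was not called. The windows are on GRCm38.p6 at chr7:13023902-13024151 (forward strand), chr6:83441679-83441928 (reverse), chr17:56303087-56303336 (forward) and chr9:20959889-20960138 (reverse), and each is given 5′ to 3′.
Trim28: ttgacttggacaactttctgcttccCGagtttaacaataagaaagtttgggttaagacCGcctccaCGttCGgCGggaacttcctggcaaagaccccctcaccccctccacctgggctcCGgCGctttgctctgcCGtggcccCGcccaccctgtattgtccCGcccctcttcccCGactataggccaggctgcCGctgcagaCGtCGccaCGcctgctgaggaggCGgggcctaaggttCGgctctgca
Tet3: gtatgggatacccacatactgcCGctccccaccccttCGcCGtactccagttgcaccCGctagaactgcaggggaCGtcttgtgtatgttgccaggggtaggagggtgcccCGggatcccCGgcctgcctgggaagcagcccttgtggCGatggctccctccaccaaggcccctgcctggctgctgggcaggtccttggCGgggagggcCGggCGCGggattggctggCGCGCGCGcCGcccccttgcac
Uhrf1: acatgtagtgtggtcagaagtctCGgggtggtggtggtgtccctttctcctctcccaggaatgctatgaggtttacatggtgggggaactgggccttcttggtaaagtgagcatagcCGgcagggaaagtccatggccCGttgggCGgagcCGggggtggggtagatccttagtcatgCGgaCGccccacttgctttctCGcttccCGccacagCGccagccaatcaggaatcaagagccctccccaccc
Dnmt1: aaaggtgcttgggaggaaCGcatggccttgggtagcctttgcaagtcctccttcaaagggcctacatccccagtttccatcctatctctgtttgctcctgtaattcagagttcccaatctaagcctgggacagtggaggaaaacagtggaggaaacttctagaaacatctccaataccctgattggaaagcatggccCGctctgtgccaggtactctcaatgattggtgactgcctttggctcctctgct
The windows of Trim28 and Tet3 held 17 CpG sites each, that of Uhrf1 held 10 and that of Dnmt1 held 2, against a median of 6 over 32851 RefSeq windows of the same length. The share of all windows with fewer CpG sites was 76.5% for Trim28 and Tet3, 62.2% for Uhrf1 and 18.8% for Dnmt1. RefSeq lists 3 starts for Dnmt1, and the window shown precedes the farthest upstream, while that before the start at 20952623 held 26 CpG sites. Of the 2 starts of Uhrf1 the window shown precedes the upstream one, and the other window held 30 CpG sites. Dnmt3a, Dnmt3b and Dnmt3l, also not called against WT, are not shown. Their windows held 38, 40 and 15 CpG sites (Dnmt3a), 21 (Dnmt3b) and 5, 4 and 3 (Dnmt3l). Whether CpG number goes with the calls was not tested. The table gave Dnmt1 a single FPKM over 20907204 to 20959888, which spans all 3 starts and cannot separate their messages. The GC box GGGCGG, searched on both strands, occurred 2 times before Trim28, 1 time before Tet3, 1 time before Uhrf1 and 0 times before this Dnmt1 start, and 32.7% of all windows held it. The CCAAT box occurred 0, 1, 1 and 4 times in the same order, and 33.8% of all windows held it. These matches describe letters in the windows and not bound sites.

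In the deposited table the FPKM of all genes added up to between 1167362 and 1226005 in WT and between 883256 and 1107925 in AmcKO. The totals of MUT were between 589617 and 611597 and those of GcKO between 482314 and 684212, so the libraries did not share one scale. Genes above 0 numbered 9359 to 9622 in WT and 10399 to 10921 in AmcKO. They numbered 11208 to 11467 in MUT and 10733 to 11608 in GcKO. Fewer genes were thus listed in every WT library than in any other, which limits the reading of low messages. The labels number the libraries of MUT and GcKO 1 to 3 and those of WT and AmcKO 4 to 6, the same split. What the numbers mean is not given, so any difference in preparation along this split cannot be told apart from the groups. Across the tested transcripts the median log2 fold change was 0.12 in MUT and 0.12 in GcKO against WT, and 0.71 and 0.74 once every library had been given an equal sum. The 14 oocyte markers all passed the filter and summed to between 6670 and 12502 FPKM, and 4 of them were called lower in MUT and 3 in GcKO than in WT, where 11.3% and 11.4% of all tested transcripts were. The 16 granulosa markers summed to 12.1 to 29.1 FPKM in all libraries, with Amh, Amhr2, Foxl2 and Lhcgr at 0 in each of them. The other-cell markers, 11 in number, summed to 2.99 to 11.9 FPKM, with 7 of them, Ptprc and Col1a1 among them, at 0 in every library. Of the 6 granulosa markers tested, Inha and Gja1 were called higher in MUT than in WT, where both were at 0. The most abundant of them, Cyp19a1, measured 10.6 ± 2.45 FPKM in MUT and 17.4 ± 2.53 in WT (SD, n = 3, limma adjusted p = 0.185), and Fshr, Kitl and Nr5a2 were not called. Of the 2 other-cell markers tested, Dcn was called lower in MUT, at 0.303 ± 0.263 against 3.19 ± 2.08 FPKM (SD, n = 3, limma adjusted p = 0.0339). The part of these markers in the results was not tested. Dpagt1 itself was listed at 0 in all WT and AmcKO libraries, at 0.408 to 0.985 FPKM in MUT and at no more than 0.366 FPKM in GcKO, so the table offers no check of the deletions. Read numbers are not part of the table, and a change in RNA per oocyte cannot be told apart from a change of one message.

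The 8 messages spanned several orders of abundance. In WT oocytes Dppa3 stood at 27933 ± 1971 FPKM (SD, n = 3), the rank 4 of all genes. Dnmt1 at 69.9 ± 3.80, Uhrf1 at 66.4 ± 4.48, Tet3 at 28.1 ± 4.12 and Dnmt3l at 24.9 ± 3.85 FPKM (SD, n = 3) followed far below. Dnmt3a at 3.66 ± 1.37, Trim28 at 1.28 ± 0.431 and Dnmt3b at 0.569 ± 0.620 FPKM (SD, n = 3) closed the list. In WT the ranges of Dnmt1 and Uhrf1 overlapped, as did those of Tet3 and Dnmt3l, and those of Trim28 and Dnmt3b, whereas Dnmt3a and Trim28 did not overlap each other. In MUT the order of the means changed, with Uhrf1 at 115 ± 6.53, Tet3 at 80.3 ± 2.02 and Dnmt1 at 77.9 ± 8.20 FPKM (SD, n = 3), and Trim28 at 7.26 ± 0.986 FPKM above Dnmt3a at 4.50 ± 0.636 FPKM (SD, n = 3). The MUT libraries of Tet3, at 77.9 to 81.6 FPKM, lay inside the range of Dnmt1, 69.5 to 85.9 FPKM, so these 2 were not separated.

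**Figure D1:**
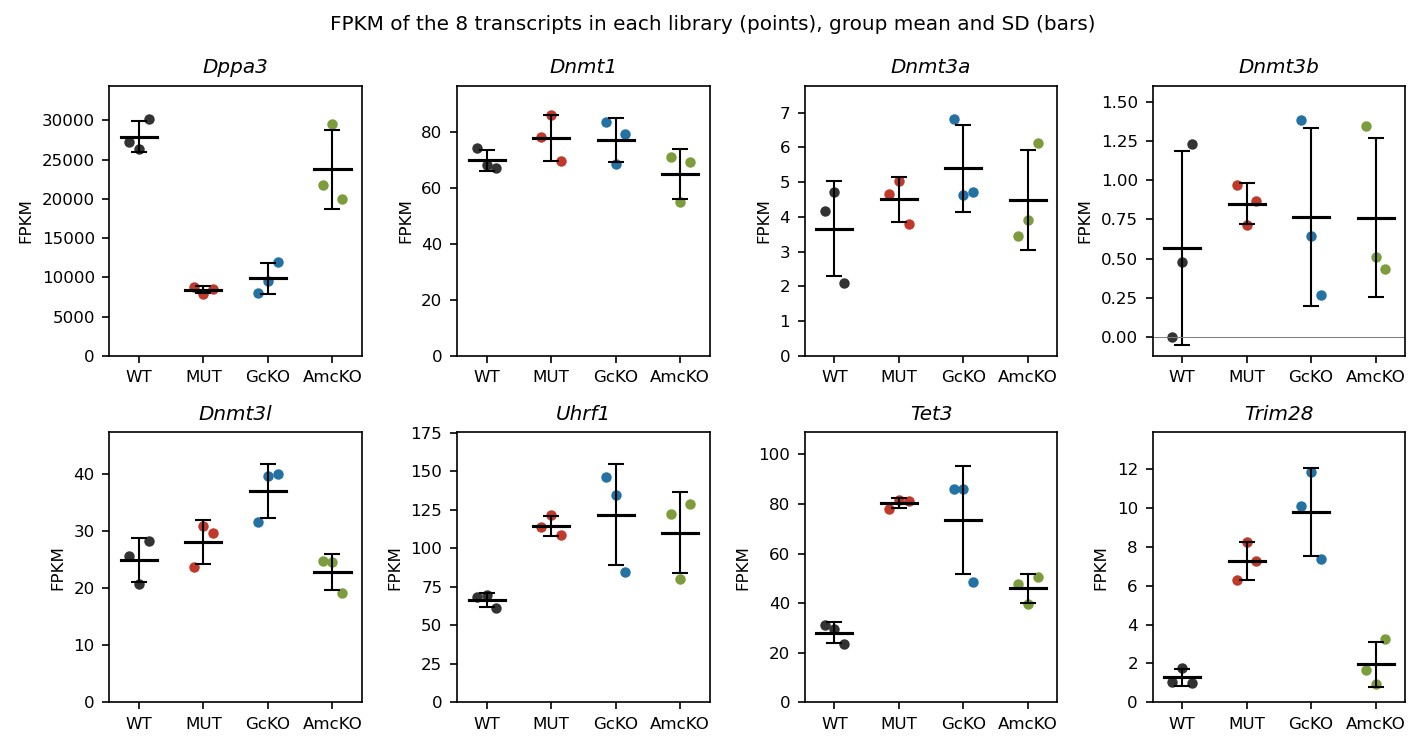
FPKM (vertical axes, linear and each with its own scale) of the 8 transcripts in the 3 libraries of WT, MUT, GcKO and AmcKO, with points for libraries and bars for the group mean and SD. Dppa3 lies at 7935 to 11959.5 FPKM in MUT and GcKO and at 20022.5 to 30143 FPKM in WT and AmcKO, while Trim28 lies at 6.27 to 11.9 FPKM in MUT and GcKO and at 0.946 to 3.24 FPKM in WT and AmcKO.

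With limma on log2(FPKM + 1), fitted over all 12 libraries, a difference was called where its p, adjusted after Benjamini and Hochberg over all 11233 transcripts, was under 0.05. In MUT against WT, 3 of the 8 rose (Uhrf1, Tet3 and Trim28) and 1 fell (Dppa3), where 9.46% of all tested transcripts rose and 11.3% fell. In GcKO against WT the same 3 rose and Dppa3 fell, against 8.71% and 11.4% of all. In AmcKO against WT, 0 of the 8 were called, 2 having an unadjusted p under 0.05, and of all transcripts 0.0979% rose and 0.116% fell. In GcKO against MUT, 0 of the 8 were called and 0 had an unadjusted p under 0.05, with 0.0712% and 0.134% of all higher and lower. In GcKO against AmcKO, 1 was higher (Trim28) and 1 lower (Dppa3), against 0.668% and 4.79% of all. In MUT against AmcKO, 2 were higher (Tet3 and Trim28) and 1 lower (Dppa3), against 1.42% and 5.07% of all. The median log2 fold change over the 8 was 0.30 in MUT, 0.52 in GcKO and 0.23 in AmcKO against WT, beside 0.12, 0.12 and 0.027 over all tested transcripts. The share of all transcripts with an unadjusted p under 0.05 was not counted, so the member counts at that level cannot be set against it. The 8 were chosen with earlier results of these data known, so their counts are not those of a set drawn without regard to the values. The 3 comparisons with WT share the same WT libraries.

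**Figure D2:**
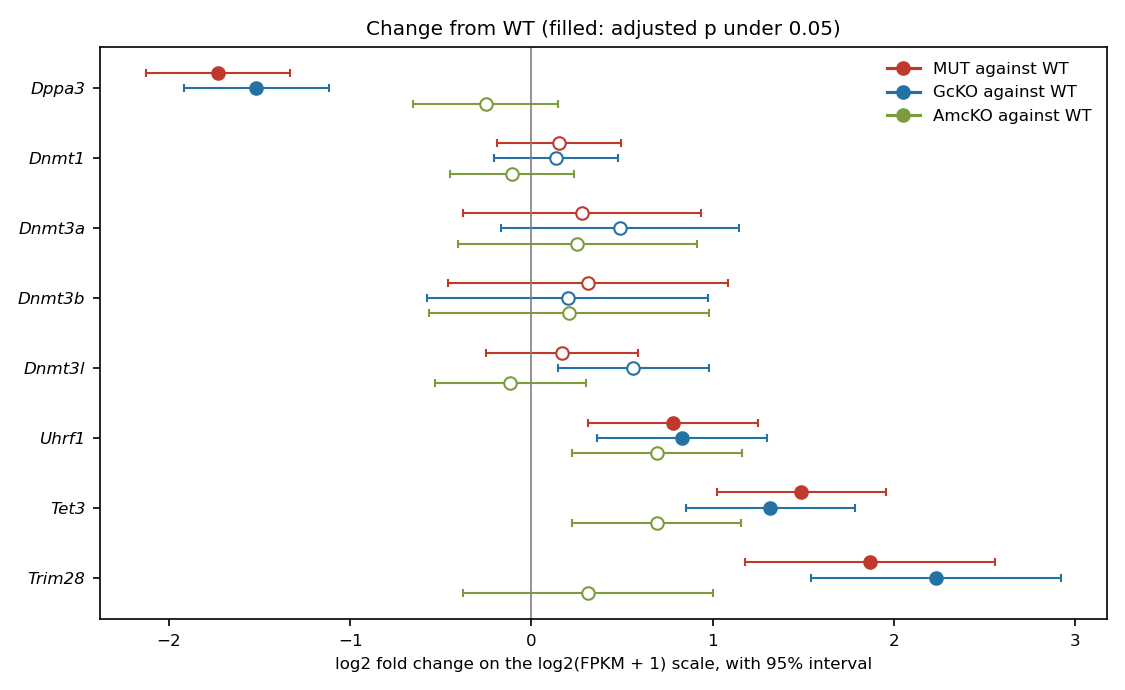
Log2 fold change against WT on the log2(FPKM + 1) scale (horizontal axis) of the 8 transcripts in MUT, GcKO and AmcKO, with lines for the 95% interval of limma and filled points for an adjusted p under 0.05. Dppa3 is at -1.73 in MUT, -1.52 in GcKO and -0.25 in AmcKO, and Trim28 at 1.87, 2.23 and 0.31.

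Dppa3, the protector of the maternal methylome, was the member that fell. Its levels were 27299, 26356 and 30143 FPKM in WT, 8755, 7935 and 8574 FPKM in MUT, 8055, 9600.03 and 11959.5 FPKM in GcKO and 21716, 29514 and 20022.5 FPKM in AmcKO. All 6 libraries of MUT and GcKO lay below all 6 of WT and AmcKO, whose ranges overlapped. The log2 fold change was -1.73 in MUT (SE 0.19, adjusted p = 1.06e-04) and -1.52 in GcKO (SE 0.19, adjusted p = 1.62e-04) against WT. Against AmcKO it was -1.48 in MUT (adjusted p = 5.66e-04) and -1.26 in GcKO (adjusted p = 0.00196). In AmcKO against WT the difference was -0.25 (95% interval -0.65 to 0.15, adjusted p = 0.528), and in GcKO against MUT it was 0.21 (95% interval -0.19 to 0.61, adjusted p = 0.935). As a share of all FPKM in a library, a measure that no scaling of the library changes, Dppa3 took between 2.23 and 2.46% in WT and between 2.25 and 2.66% in AmcKO. The share was 1.30 to 1.45% in the MUT libraries and 1.57 to 1.75% in those of GcKO. On this scale too MUT and GcKO lay below both other groups in every library.

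The fall of Dppa3 was shared by other abundant messages. Among the 113 tested transcripts of the top 1% of mean level, which include Dppa3, the median log2 fold change was -1.21 in MUT, with 5% to 95% limits of -1.78 and -0.57, and -1.28 in GcKO, with limits of -1.82 and -0.49. Dppa3 lay inside these limits in both groups. An equal FPKM sum in all libraries left Dppa3 called at -0.73 in MUT (adjusted p = 7.14e-05) and -0.48 in GcKO (adjusted p = 4.18e-04). After quantile normalization, which gives transcripts of the same rank the same value, the changes were -0.19 (adjusted p = 0.166) and -0.029 (adjusted p = 0.882), and Dppa3 was ranked 3 to 6 in every library. A loess correction for mean level, chosen after seeing the data, gave -0.089 in MUT and 0.17 in GcKO, and neither was called. The transcript model of Dppa3 is short, 833 nt at most, and the 3713 shortest transcripts had a median of -0.11 in MUT and -0.15 in GcKO, against 0.30 and 0.35 over the 3711 longest. After correction for transcript length Dppa3 remained called, at -1.52 in MUT (adjusted p = 8.67e-06) and -1.28 in GcKO (adjusted p = 2.08e-05). Dppa3 shares a stretch of 451 nt at 98.2% identity with the pseudogene Dppa3-ps and 450 nt at 91.1% with Gm47576, neither of which was a row of the table, so reads of these copies may be counted in it.

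Uhrf1, the reader of hemimethylated DNA that DPPA3 restrains, rose in the same oocytes. It measured 68.1, 69.8 and 61.3 FPKM in WT, 114, 122 and 109 FPKM in MUT, 146, 135 and 84.8 FPKM in GcKO and 122, 79.9 and 129 FPKM in AmcKO. Every library of the 3 other groups exceeded every WT library, while MUT, GcKO and AmcKO overlapped one another. The log2 fold change against WT was 0.78 in MUT (SE 0.22, adjusted p = 0.0218), 0.83 in GcKO (SE 0.22, adjusted p = 0.0157) and 0.69 in AmcKO (SE 0.22, adjusted p = 0.170, unadjusted p = 0.00677). Neither MUT nor GcKO was shown to differ from AmcKO, at 0.086 (95% interval -0.38 to 0.55) and 0.14 (95% interval -0.33 to 0.60). The call in MUT was lost without WT replicate 6 or any 1 of the 3 MUT libraries (adjusted p up to 0.0737), with the length correction (0.60, adjusted p = 0.0586) and without the variance trend (adjusted p = 0.0528). The call in GcKO was lost without WT replicate 6, GcKO replicate 1 or GcKO replicate 2 (adjusted p up to 0.0741). Among the transcripts between the 90% and 99% levels of abundance, where Uhrf1 lies, the 95% limit of the log2 fold change was 0.49 in MUT and 0.40 in GcKO. Between the 75% and 90% levels that limit was 1.09 and 1.02, above the values of Uhrf1. In WT 88.9% of tested transcripts lay below Uhrf1. A pseudogene, Gm5648, shares 1590 nt with Uhrf1 at 98.3% identity and had no row of its own.

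Dnmt1, the maintenance methyltransferase that UHRF1 recruits, showed no called difference in any of the 6 comparisons. Its levels were 74.3, 68.1 and 67.3 FPKM in WT, 78.3, 85.9 and 69.5 FPKM in MUT, 83.7, 68.7 and 79.2 FPKM in GcKO and 71.1, 54.8 and 69.5 FPKM in AmcKO. The 4 groups overlapped. The log2 fold change against WT was 0.15 in MUT (95% interval -0.19 to 0.49), 0.14 in GcKO (95% interval -0.20 to 0.48) and -0.11 in AmcKO (95% interval -0.45 to 0.23). The intervals for MUT and GcKO reach 0.49 and 0.48, so smaller changes remain possible. Transcripts between the 90% and 99% levels of abundance, which include Dnmt1, had medians of -0.70 and -0.73 in MUT and GcKO. Dnmt1 lies near the lower edge of that range, with 89.2% of tested transcripts below it in WT. Those between the 75% and 90% levels had medians of -0.11 and -0.15. Both sets of medians were below the values of Dnmt1. Dnmt1 was called higher than WT after quantile normalization, at 0.60 in MUT (adjusted p = 0.0388) and 0.61 in GcKO (adjusted p = 0.0375), and with equal FPKM sums, whereas the length correction gave -0.11 and -0.17, not called.

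The genes of de novo methylation were not called against WT. Dnmt3l, the cofactor without which oocyte methylation is not laid down, measured 25.7, 20.7 and 28.3 FPKM in WT, 23.7, 30.9 and 29.6 FPKM in MUT, 31.6, 39.6 and 40.1 FPKM in GcKO and 24.7, 24.6 and 19.2 FPKM in AmcKO. The 3 GcKO libraries lay above every library of the other groups. The log2 fold change of GcKO was 0.56 against WT (95% interval 0.14 to 0.98, adjusted p = 0.0563), 0.39 against MUT (adjusted p = 0.790) and 0.68 against AmcKO (adjusted p = 0.0592), and the differences from WT and from AmcKO were called after quantile normalization, the length correction and equal FPKM sums. Dnmt3l shares its deposited locus, which begins at position 78030020 of chromosome 10, with Aire, while the GENCODE M21 gene model of Dnmt3l begins at 78041947.

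Dnmt3a, the enzyme that DNMT3L activates, was low, at 4.16, 4.71 and 2.11 FPKM in WT, 4.65, 5.05 and 3.80 FPKM in MUT, 6.83, 4.63 and 4.72 FPKM in GcKO and 3.45, 3.90 and 6.12 FPKM in AmcKO. All groups overlapped, and the intervals were wide, from -0.38 to 0.94 for MUT and from -0.17 to 1.14 for GcKO against WT. Dnmt3b, the other de novo enzyme, was the lowest member, at 0, 0.477 and 1.23 FPKM in WT, 0.971, 0.717 and 0.868 FPKM in MUT, 1.39, 0.647 and 0.269 FPKM in GcKO and 1.34, 0.507 and 0.435 FPKM in AmcKO. These values are at most 9.51 times the smallest listed values (1% limit) of transcripts of similar length, and no difference was called. The intervals were the widest of the 8, from -0.46 to 1.09 for MUT and from -0.57 to 0.97 for GcKO against WT. Dnmt3b also shares 1434 nt at 93.9% identity with Dnmt3c, which had no row.

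Tet3, the dioxygenase that oxidizes 5-methylcytosine in the zygote, was higher in both oocyte-defective groups. It stood at 31.2, 29.8 and 23.5 FPKM in WT, 77.9, 81.6 and 81.2 FPKM in MUT, 86.1, 86.1 and 48.4 FPKM in GcKO and 47.7, 39.6 and 50.6 FPKM in AmcKO. WT was lowest in every library, MUT and 2 of the GcKO libraries were highest, and AmcKO lay between WT and MUT, with GcKO replicate 3 inside the AmcKO range. The log2 fold change against WT was 1.49 in MUT (SE 0.22, adjusted p = 4.18e-04), 1.32 in GcKO (SE 0.22, adjusted p = 9.26e-04) and 0.69 in AmcKO (SE 0.22, adjusted p = 0.170, unadjusted p = 0.00674). MUT exceeded AmcKO by 0.80 (adjusted p = 0.0427), a call that was lost when any of 8 of the 12 libraries was left out (adjusted p up to 0.148). It was lost too with the length correction (0.68, adjusted p = 0.0574), without the variance trend (adjusted p = 0.104) and without the filter on low values (adjusted p = 0.0629). GcKO exceeded AmcKO by 0.63 (adjusted p = 0.120), and without GcKO replicate 3 by 0.90 (adjusted p = 0.00909). Tet3 has the longest transcript of the 8, 10904 nt, and the length correction lowered its change to 1.16 in MUT (adjusted p = 0.00114) and 0.90 in GcKO (adjusted p = 0.00664), both still called. The MUT and GcKO values also lay above the 95% limits of transcripts of like abundance, 1.09 and 1.02.

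Trim28, the corepressor that holds imprints, rose in MUT and GcKO. It measured 1.05, 1.78 and 1.02 FPKM in WT, 6.27, 8.24 and 7.28 FPKM in MUT, 10.1, 11.9 and 7.36 FPKM in GcKO and 1.67, 0.946 and 3.24 FPKM in AmcKO. All 6 libraries of MUT and GcKO lay above all 6 of WT and AmcKO. The log2 fold change against WT was 1.87 in MUT (SE 0.32, adjusted p = 0.00126), 2.23 in GcKO (SE 0.32, adjusted p = 3.87e-04) and 0.31 in AmcKO (95% interval -0.38 to 1.00, adjusted p = 0.659). Against AmcKO it was 1.55 in MUT (adjusted p = 0.0109) and 1.92 in GcKO (adjusted p = 0.00392), the former at an adjusted p of 0.0540 without MUT replicate 2. The WT values were 2.28 to 3.67 times the smallest listed values (1% limit) of transcripts of similar length, and those of MUT were 29.5 to 41.3 times, so the WT level lay close to the lowest values listed. The added pseudocount of 1 is close to the WT level and shrinks the change, which was 2.45 in MUT and 2.85 in GcKO with a pseudocount of 0.1. Trim28 remained called in both groups under every scaling and correction tried. As deposited its rises were the largest of the 8 in both groups, but in MUT Tet3 exceeded it after quantile normalization (1.79 against 1.63) and with the abundance correction (1.79 against 1.58).

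The calls depended on scale in a way that differed between members. With equal FPKM sums, 6 of the 8 were called higher and 1 lower in MUT, and likewise in GcKO, instead of 3 and 1. Of all 11233 transcripts, 4643 were then called higher and 251 lower in MUT instead of 1063 and 1269. In GcKO 4767 of all were called higher and 240 lower instead of 978 and 1286. Relative to the median of all transcripts under that scaling, Dppa3 was at -1.45 in MUT, and Uhrf1, Tet3 and Trim28 were at 1.05, 1.75 and 1.85. After quantile normalization 4 of the 8 were called higher and 0 lower in MUT, and 5 and 0 in GcKO. Of all 11233 transcripts, 755 were then called higher and 720 lower in MUT, and 694 and 664 in GcKO. Uhrf1, Tet3 and Trim28 had a positive log2 fold change in MUT and GcKO under each of these alternatives, and Dppa3 was negative in MUT under each of them.

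**Figure D3:**
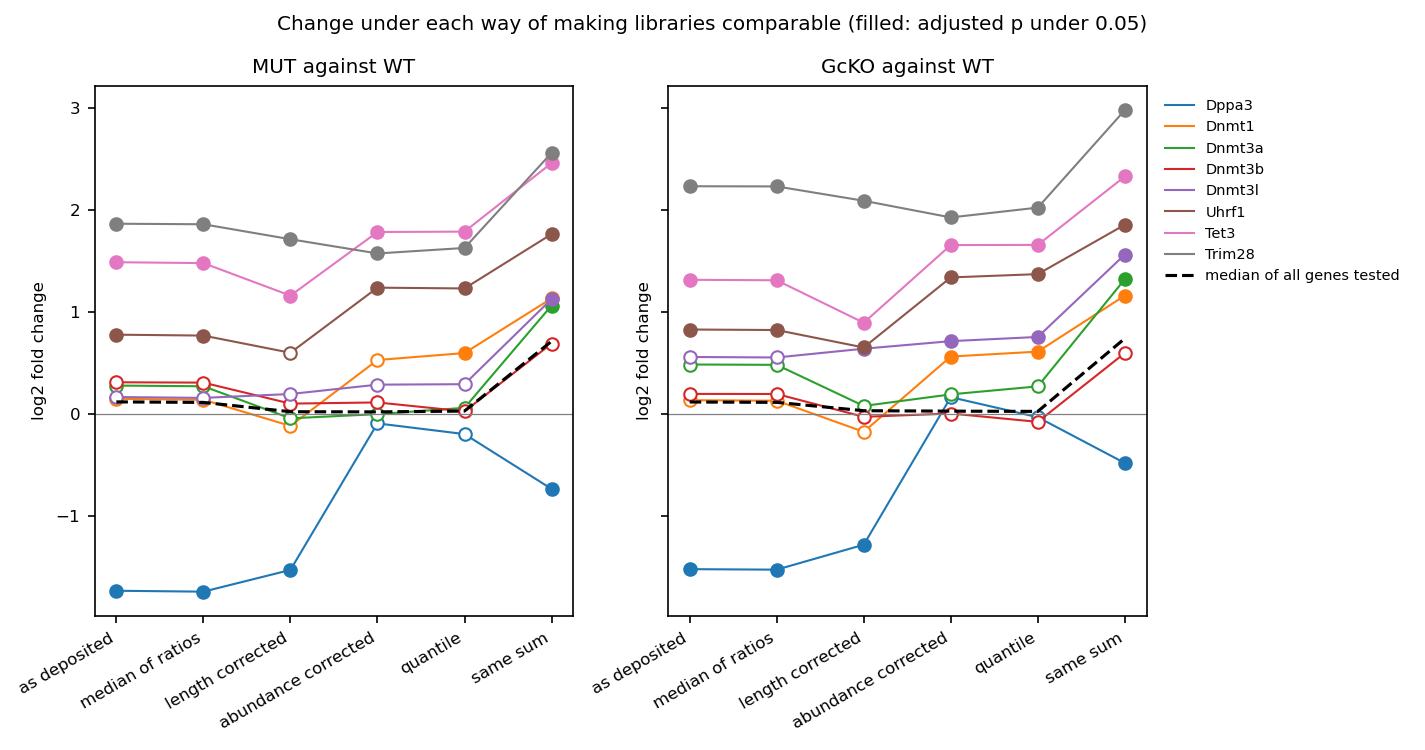
Log2 fold change against WT (vertical axis) of the 8 transcripts in MUT (left) and GcKO (right) with the values as deposited and after 5 other ways of making libraries comparable, with filled points for an adjusted p under 0.05 and a dashed line for the median of all tested transcripts. Trim28, Tet3 and Uhrf1 stay above the dashed line, whereas Dppa3 goes from -1.73 to -0.19 in MUT with quantile normalization.

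Ratios of members within a library cancel any factor common to that library. Per 1 unit of Uhrf1 FPKM there were between 378 and 491 units of Dppa3 FPKM in WT and between 156 and 370 in AmcKO. In MUT there were between 65.3 and 79.0, and in GcKO between 55.0 and 141. WT did not overlap any other group, and AmcKO lay between WT and the rest. The mean log2 ratio of Dppa3 to Uhrf1 was lower by 2.52 in MUT than in WT, a ratio 5.73-fold lower, and 5.12-fold lower in GcKO and 1.94-fold lower in AmcKO. The ratio of Dppa3 to Tet3 was 9.52-fold lower in MUT and 7.28-fold lower in GcKO than in WT, and that of Dppa3 to Dnmt1 3.69-fold and 3.15-fold lower. In AmcKO the ratio of Dppa3 to Dnmt1, at 288 to 538, overlapped the WT range of 368 to 448.

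Among the other members, Uhrf1 was level with Dnmt1 in WT, at a ratio of 0.911 to 1.02, and exceeded it in each library of the other groups, at 1.46 to 1.85 in AmcKO, 1.41 to 1.56 in MUT and 1.07 to 1.96 in GcKO. The ratio of Trim28 to Dnmt1 was 5.25-fold higher in MUT and 7.03-fold higher in GcKO than in WT, without overlap. The ratio of Dnmt3l to Dnmt3a overlapped in all comparisons, at 4.40 to 13.4 in WT and 3.13 to 8.55 in the rest. Of 36 tests, 6 ratios in 6 comparisons, 21 gave the smallest p that an exact permutation test of 3 against 3 allows, 0.10 (two-sided), which is 0.171 after Benjamini-Hochberg adjustment, so no ratio could pass the threshold in this design. A ratio does not cancel trends with abundance or length. How many pairs of other transcripts reach this p was not counted, so the 21 cannot be set against a share. Several of the ratios share Dppa3 or Dnmt1, so the 36 tests are not independent.

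**Figure D4:**
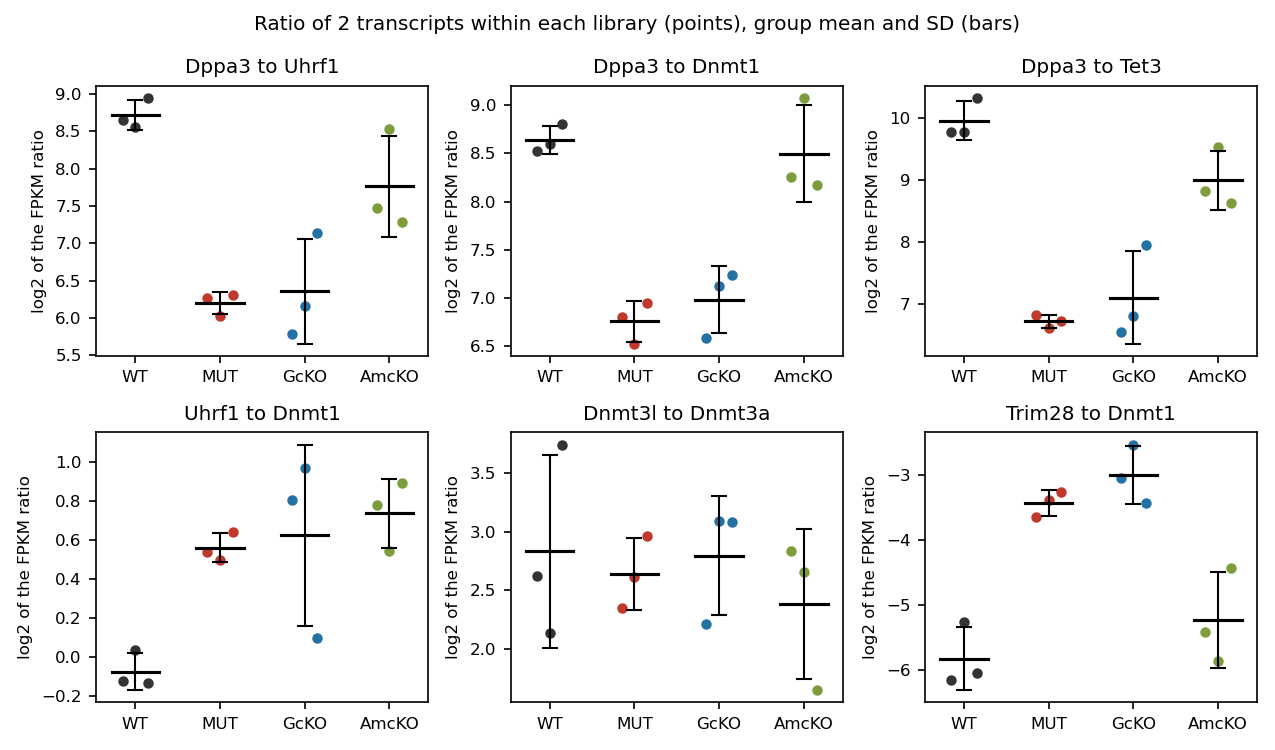
Log2 of the FPKM ratio of 2 transcripts within a library (vertical axes) for 6 pairs, with points for the 3 libraries of each group and bars for the mean and SD. The mean for Dppa3 to Uhrf1 falls from 8.72 in WT to 6.20 in MUT and 6.36 in GcKO, with AmcKO at 7.76.

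For the other genes of the pathway, the shares of all tested transcripts that rose and fell were 9.46% and 11.3% in MUT and 8.71% and 11.4% in GcKO, and the median over all was 0.12 in each. Of 14 tested readers, erasers and cofactors of DNA methylation, 1 rose and 2 fell in MUT, and 1 rose and 1 fell in GcKO, with a median of 0.14 and 0.060, close to those shares and that median. Usp7, a deubiquitinase that binds DNMT1 and UHRF1, rose from 6.35 ± 1.20 FPKM in WT to 14.8 ± 1.08 in MUT and 17.2 ± 4.87 in GcKO (SD, n = 3), a log2 fold change of 1.12 and 1.28 (adjusted p = 0.00836 and 0.00368). Nlrp14, an abundant oocyte message of the NLR family, fell from 4919 ± 652 FPKM in WT to 1939 ± 572 in MUT and 2493 ± 1330 in GcKO (SD, n = 3), by 1.38 and 1.13 on the log2 scale (adjusted p = 0.00966 and 0.0263). Both falls lay inside the 5% to 95% limits of the top 1% of mean level. Those limits were -1.78 and -0.57 in MUT and -1.82 and -0.49 in GcKO. Pcna, the replication clamp, also fell in MUT, by 0.69 (adjusted p = 0.0493).

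Among 13 tested genes of H3K9 methylation and imprint protection, partners of TRIM28 included, 5 rose and 1 fell in MUT, and 3 rose and 2 fell in GcKO, with a median of 0.68 and 0.51, where 9.46% and 11.3% of all rose and fell in MUT and 8.71% and 11.4% in GcKO, with a median of 0.12. Suv39h1, an enzyme of H3K9 trimethylation, fell by 0.87 in MUT (adjusted p = 0.0262) and fell by 1.12 in GcKO (adjusted p = 0.00665). Ehmt1, an enzyme of H3K9 dimethylation, rose by 0.92 in MUT (adjusted p = 0.0401) and 0.97 in GcKO (adjusted p = 0.0332), and Rif1 by 0.87 and 1.07 (adjusted p = 0.0193 and 0.00604). Ctcf, the insulator protein of imprinted loci, rose by 0.84 in MUT and 0.99 in GcKO (adjusted p = 0.0225 and 0.00948). Setdb1, the methyltransferase that TRIM28 brings to its targets, rose by 0.73 in MUT (adjusted p = 0.0468) and measured 0.51 in GcKO (adjusted p = 0.153), while Suv39h2 rose by 0.72 in MUT (adjusted p = 0.0437) and Cbx1 fell by 0.76 in GcKO (adjusted p = 0.0273). Zfp57, the zinc finger partner of TRIM28 at imprints, measured -0.43 in MUT (adjusted p = 0.226) and -0.61 in GcKO (adjusted p = 0.0850).

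Of 12 histone modifiers that guide DNA methylation in oocytes, 3 rose and 0 fell in MUT, and 4 rose and 0 fell in GcKO, with a median of 0.53 and 0.72, beside 9.46% higher and 11.3% lower of all transcripts in MUT and 8.71% and 11.4% in GcKO. In AmcKO 0 of the 12 were called, but their median against WT was 0.60, beside 0.027 over all transcripts. The positive median of this list was thus not particular to MUT and GcKO. Setd2, the enzyme of H3K36 trimethylation, rose from 3.69 ± 1.03 FPKM in WT to 7.77 ± 0.136 in MUT and 10.6 ± 1.18 in GcKO (SD, n = 3), by 0.93 and 1.33 (adjusted p = 0.0111 and 0.00120). Kdm1b, an H3K4 demethylase needed for oocyte imprints, rose by 1.07 in GcKO (adjusted p = 0.00571), and Kdm1a rose by 1.17 in MUT (adjusted p = 0.0473). Ezh2 rose in both, at 0.74 and 0.90 (adjusted p = 0.0485 and 0.0196), and Cxxc1 in GcKO, at 1.06 (adjusted p = 0.0389).

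In the lists for supply of the methyl donor S-adenosylmethionine and for base excision repair, each of few genes, the counts can be set against the same shares of all transcripts, 9.46% higher and 11.3% lower in MUT and 8.71% and 11.4% in GcKO. Of 7 supply genes, 0 rose and 1 fell in MUT, and 1 rose and 1 fell in GcKO, with a median of 0.50 and 0.31. Mat2b, the regulatory subunit of methionine adenosyltransferase, fell by 0.90 in both MUT and GcKO (adjusted p = 0.00112 and 0.00106), and Ahcy rose in GcKO from 0.222 ± 0.385 to 2.37 ± 0.387 FPKM (SD, n = 3, limma adjusted p = 0.0174). Of 9 repair genes, 0 rose and 1 fell in MUT, and 0 rose and 2 fell in GcKO, with a median of 0.44 and 0.14. Of the DNA glycosylases Neil3 was at -1.15 in MUT and -0.96 in GcKO (adjusted p = 0.00176 and 0.00543), and Ung at -0.97 in GcKO (adjusted p = 0.0242). Mat2b and Neil3 were abundant, at 1377 ± 61.8 and 332 ± 37.9 FPKM in WT (SD, n = 3). Between the 90% and 99% levels of abundance the medians were -0.70 in MUT and -0.73 in GcKO. The 5% limit there was -1.60 in both groups, below the values of Mat2b and Neil3. In AmcKO no gene of these 5 lists was called by limma, while 10 of the 55 had an unadjusted p under 0.05, with Setd2 at 0.86 (unadjusted p = 0.00209) and Usp7 at 0.85 (unadjusted p = 0.00582). How many of all transcripts had an unadjusted p under 0.05 was not counted, so these 10 cannot be set against a share. Genes beyond the 2 of largest change in each list were named after their values were seen.

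**Figure D5:**
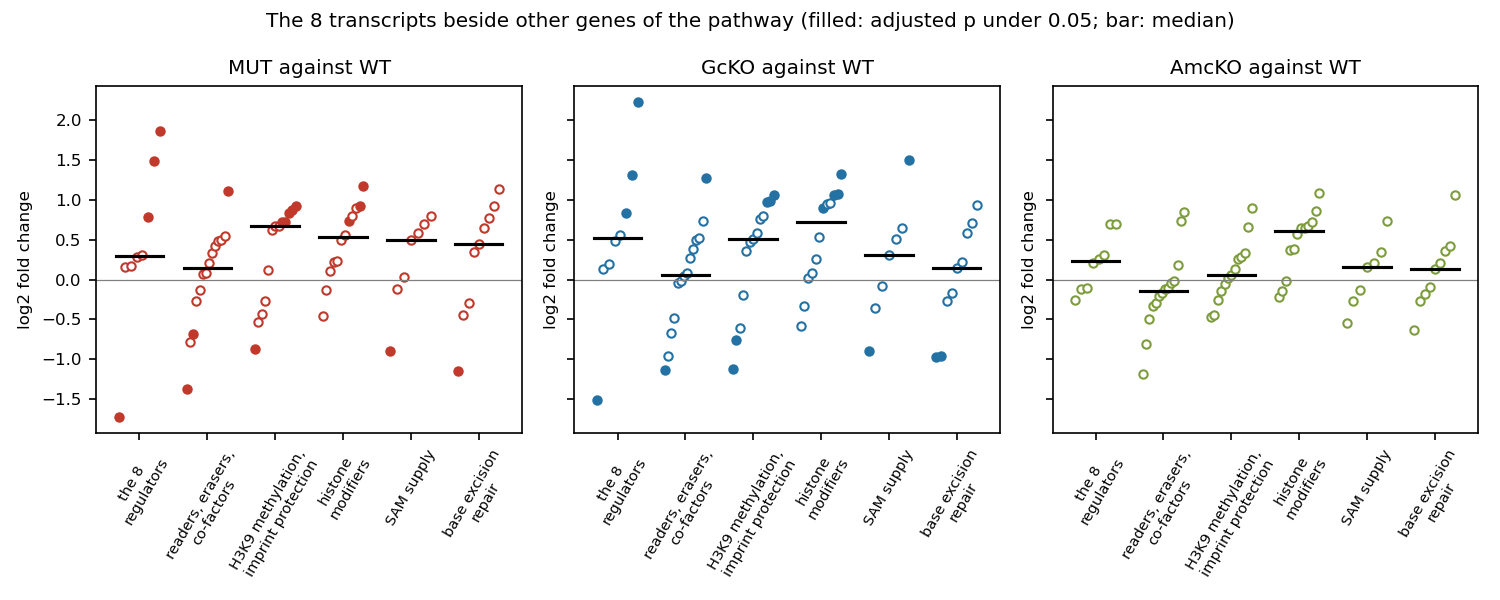
Log2 fold change against WT (vertical axis) of the 8 regulators and of the tested genes of 5 other lists in MUT, GcKO and AmcKO, with one point per gene, filled for an adjusted p under 0.05, and a bar for the median. In MUT and GcKO each list holds filled points, and in AmcKO none does.

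The messages whose pattern over the 12 libraries was most like that of Dppa3, by Pearson correlation of log2(FPKM + 1), were Skp1a (0.996), Umodl1 (0.994), Psmb1 (0.993), Mdm4 (0.993) and Birc5 (0.992). For Uhrf1 they were Usp54 (0.964) and Usp7 (0.953), for Tet3 Ube4b (0.974) and Zfp212 (0.973), and for Trim28 Rnf14 (0.961) and Tm7sf3 (0.958). For Dnmt1, Dnmt3a, Dnmt3b and Dnmt3l the leading values were lower, 0.914, 0.894, 0.875 and 0.879, with 6030458C11Rik, Zbtb24, Tmem260 and Rreb1, and the next were Gtf2h1 (0.873), 2700054A10Rik (0.890), Gnb2l1 (0.846) and Zfp750 (0.870). These values describe likeness only, since the libraries fall into groups and share the scale and abundance trend given above. With equal FPKM sums the correlation of Dppa3 was 0.975 with Skp1a and 0.789 with Mdm4.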

How the data were processed

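RNA-Seq libraries of GV-stage oocytes, 12 in number, were analysed in 4 groups of 3 taken from the labels. Paired 150-nt reads had been mapped by the authors to mm10 (TopHat2 2.0.13), and Cufflinks 2.2.1 gave the FPKM values that they deposited, 1 value for each of 24255 genes and 12 libraries. The gene annotation is not given in the sources used here. A further 18 deposited columns hold the authors' own test results for 6 comparisons (fold changes and p or q values) and were not used. FPKM values carry no read numbers, so the depth of each library is unknown.

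The Cuffdiff test of the study needs reads. Here limma 3.58.1 in R 4.3.3 was run on log2(FPKM + 1) with a variance trend, in 1 fit of all 12 libraries (8 residual degrees of freedom) and over the 11233 genes that reached FPKM 1 in any library. Fold changes on this scale understate the change of low genes. The 6 comparisons between groups were tested, with Benjamini-Hochberg adjustment over all genes and a threshold of 0.05. Ratios were tested by exact permutation in scipy 1.17.1 (Python 3.11.15).

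The members and gene lists were chosen with earlier results of these data known. By rule the text names the 8 members, the 2 called genes of largest change in each list and comparison with WT, the genes of most similar pattern (5 for Dppa3, 2 for each other member) and Dpagt1. The code was tested on simulated data. Replicate numbers did not pair the libraries, since deviations of same-numbered libraries of MUT and GcKO, or of WT and AmcKO, correlated at -0.041 to 0.041. Deviations from group means cannot show a difference between libraries numbered 1 to 3 (MUT and GcKO) and 4 to 6 (WT and AmcKO). Transcript lengths, from GENCODE M21 on GRCm38, were found for 99.1% of the tested genes. Near-identical copies were sought with blastn 2.17.0 (90% identity, 150 nt or more). Promoter windows came from RefSeq on GRCm38.p6, with entries for 7 of the 8 members. Alternatives were a pseudocount of 0.1, no filter on low values, a stricter one (mean FPKM 5 or more), size factors by median of ratios, quantile normalization, equal FPKM sums, a fit with no variance trend or with only the 2 groups compared, a length correction, calls that also needed a 2-fold change, calls at 0.01, the replicate number as a block and each library left out. Only the correction for abundance was chosen after the data had been seen.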

Additional observations from a re-analysis of the deposited data

Results flagged for a closer look

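For 3 members the change from WT differed between groups, by the limma test of that difference over all 12 libraries. Dppa3 lay lower in MUT than in AmcKO by a log2 difference of -1.48 (adjusted p = 5.66e-04) and lower in GcKO than in AmcKO by -1.26 (adjusted p = 0.00196), with 6 of 6 libraries of MUT and GcKO below all of AmcKO. Trim28 lay higher in MUT than in AmcKO by 1.55 (adjusted p = 0.0109) and higher in GcKO than in AmcKO by 1.92 (adjusted p = 0.00392), again with 6 of 6 libraries outside the AmcKO range. Tet3 lay higher in MUT than in AmcKO by 0.80 (adjusted p = 0.0427), and this was not called with the length correction (0.68, adjusted p = 0.0574), without the variance trend (adjusted p = 0.104), without the filter on low values (adjusted p = 0.0629) or with 1 of 8 libraries left out. Dppa3 was not called after quantile normalization, at -0.25 in MUT and -0.085 in GcKO against AmcKO, nor with the abundance correction, and with only the 2 groups fitted the adjusted p in GcKO against AmcKO was 0.0578. Groups of 3 libraries were not tested for single outlying values.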

How the results depend on the processing

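Of the 48 results, a member's log2 fold change in a comparison, all 48 kept direction and side of the threshold with a pseudocount of 0.1 and with median-of-ratios scaling. The number of members called was 7 in MUT and 7 in GcKO against WT with equal FPKM sums, where it was also 6 for GcKO and 5 for MUT against AmcKO. Under that scaling, of all 11233 transcripts, 4643 were higher and 251 lower in MUT, and 4767 and 240 in GcKO, against WT. Against AmcKO, 2463 of all were higher and 128 lower in GcKO, and 2393 and 165 in MUT. The number of members called was 1 for GcKO against AmcKO with only the 2 groups fitted, where 12 of all transcripts were higher and 103 lower. It was 1 for MUT against AmcKO at an adjusted p under 0.01, where 22 of all were higher and 244 lower. With 1 library left out it was 1 to 3 for MUT against AmcKO, where 55 to 177 of all transcripts were higher and 294 to 690 lower. With the replicate number as a block, possible for GcKO against MUT and AmcKO against WT, 0 members were called in each and 16 of 16 results held. FPKM carry no read numbers, so what depth limits is unknown beyond the low values given for Dnmt3b and Trim28.

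Signs turned as follows, and the cause was not tested. Dppa3 in GcKO against WT, called as deposited, was at 0.17 with the abundance correction, not called. The other turned values were of results not called as deposited. With the length correction they were, against WT, Dnmt1 -0.11 and Dnmt3a -0.040 in MUT, and Dnmt1 -0.17 and Dnmt3b -0.025 in GcKO. In MUT against AmcKO they were Dnmt3a -0.092 and Uhrf1 -0.0096. With quantile normalization they were Dnmt3b -0.074 in GcKO and Dppa3 0.057 and Dnmt1 0.060 in AmcKO against WT, Dnmt1 0.014 in GcKO against MUT, and Dnmt3a -0.12 and Dnmt3b -0.032 in MUT against AmcKO. With equal FPKM sums they were Dppa3 0.045, Dnmt1 0.18 and Dnmt3l 0.17 in AmcKO against WT, Dnmt1 0.028 in GcKO against MUT and Dnmt3b 0.34 in GcKO against AmcKO. With the abundance correction they were Dppa3 0.25 and Dnmt1 0.024 in AmcKO against WT, Dnmt1 0.034 in GcKO against MUT, and Dnmt3a -0.12 and Dnmt3b -0.0080 in MUT against AmcKO.

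With 1 library left out, Dnmt3b ranged from -0.087 to 0.49 in GcKO and from -0.080 to 0.50 in AmcKO against WT. Also against WT in AmcKO, Dnmt1 ranged from -0.18 to 0.0088 and Dnmt3a from -0.014 to 0.42. In GcKO against MUT the ranges were -0.092 to 0.067 for Dnmt1, -0.35 to 0.10 for Dnmt3b, -0.10 to 0.29 for Uhrf1 and -0.31 to 0.10 for Tet3. In GcKO against AmcKO they were -0.25 to 0.22 for Dnmt3b and -0.078 to 0.38 for Uhrf1. In MUT against AmcKO they were -0.11 to 0.23 for Dnmt3a, -0.024 to 0.33 for Dnmt3b and -0.13 to 0.21 for Uhrf1.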
